A study of Saccharomyces cerevisiae with 6 samples.

Results

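The 53 genes described here are the *RPL* genes of *Saccharomyces cerevisiae* numbered 1 to 30, from *RPL1A* (YPL220W) to *RPL30* (YGL030W), taken by systematic name from a table of 6277 genes. All 53 were listed and all were tested. They encode proteins of the large (60S) subunit of the cytosolic ribosome, 46 of them as 23 pairs of duplicated genes (an A and a B copy) and 7 as single genes (*RPL3*, *RPL5*, *RPL10*, *RPL25*, *RPL28*, *RPL29* and *RPL30*). RNA sequencing of ribosome-depleted total RNA was carried out in 3 strains with 2 clones each. The *rrp6Δ* strain carried an empty pRS413 plasmid, the Rrp6exo- strain carried *RRP6* D238N, an allele without exoribonuclease activity, and the WT strain carried *RRP6*. All 3 strains descended from 1 haploid *rrp6Δ mtr4Δ* double deletion in the BY4741/BY4743 background, and all carried *MTR4* on both pRS416 and pRS415, so WT differed from a normal wild type in having each of its *RRP6* and *MTR4* genes on plasmids only. The plasmid *RRP6* alleles were driven by a short stretch of the native promoter. Cells were grown to mid-log phase in medium lacking histidine, leucine and uracil.

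Rrp6 is a 3′ to 5′ exoribonuclease of the nuclear RNA exosome, which trims and degrades nuclear RNA, including unspliced pre-mRNA, and Mtr4 is the helicase that feeds RNA to it. Ribosomal protein genes are transcribed at very high rates in growing yeast under the factors Rap1, Fhl1, Ifh1 and Sfp1, and they account for a large part of all splicing in this organism, since most yeast genes have no intron and many ribosomal protein genes do. In this group 33 of the 53 genes held an intron in the annotation, and *RPL7A* and *RPL7B* held a pair of introns each, which gave 35 introns. Several of these introns are regulatory. Rpl30 binds its own transcript and blocks its splicing, Rpl22 binds the intron of *RPL22B*, and the introns of *RPL7A* and *RPL7B* host the C/D box snoRNAs snR39 and snR59.

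The 5′ splice sites of some of the genes whose values are given in detail are shown first, beside the *RPL20* pair. Both pairs shown in full have copies with different splice sites. Each sequence is the coding strand of the R64 genome (sacCer3), 5′ to 3′, with 10 bases of exon and 20 of intron, and the capitals mark the 6 bases of the 5′ splice site.
RPL18B: ttcctagctcGTATGTattgaaatctccct
RPL22A: ggccccaaacGTATGAtactttaaaaggaa
RPL22B: ggctccaaacGTACGTtaattttcgttcct
RPL30: cgcagagatgGTCAGTataacatgatttta
RPL20A: tgcggaaaaaGTGAGTaaatacctactaaa
RPL20B: caaagaaaaaGTATGTaatagaatgtattg
These windows lie at chrXIV:64431-64460 (minus strand) for *RPL18B*, chrXII:263196-263225 (plus) for *RPL22A*, chrVI:64901-64930 (minus) for *RPL22B*, chrVII:439084-439113 (plus) for *RPL30*, chrXIII:754200-754229 (minus) for *RPL20A* and chrXV:901174-901203 (minus) for *RPL20B*. GTATGT, the commonest 5′ splice site of yeast, opened 27 of the 35 introns (77.1%). It opened 73.0% of the 281 introns annotated within coding sequences of nuclear genes, called all introns here. GTACGT opened 5 (*RPL16A*, *RPL16B*, *RPL22B*, *RPL27A* and *RPL27B*). The other 3 sites each occurred once in these genes, in *RPL22A*, *RPL30* and *RPL20A*. GTCAGT and GTGAGT each opened 0.7% of all introns. The *RPL20* copies encode identical proteins, and the proteins of the *RPL22* copies are 84.4% identical. The branch sequence TACTAAC was found in 32 of the 35 introns (91.4%), against 82.6% of all introns. In the *RPL22B* intron, which is 321 bases long, it lay 15 bases before the 3′ splice site, the shortest such distance among these introns, and in the *RPL22A* intron, of 389 bases, it lay 54 bases before it. The *RPL30* intron was the shortest apart from that of *RPL2A*, with 230 bases.

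The libraries held from 34188755 to 39501874 reads on listed genes, recovered from the deposited scaled counts, which are read counts divided by 1 size factor per library. *RRP6* had scaled counts of 4.17 and 8.33 in *rrp6Δ*, 18538 and 21173 in Rrp6exo-, and 19503 and 21626 in WT, as the labels say. The labels give RNA integrity numbers of 6.1 to 8.9 for the series without naming the library. Replicates 1 and 2 of a strain were different clones, and the libraries that share a replicate number also share a letter in their labels. Over all genes the difference between replicate 2 and replicate 1 correlated between strains (r of 0.586 for *rrp6Δ* with WT, 0.547 for Rrp6exo- with WT and 0.459 for *rrp6Δ* with Rrp6exo-, across genes, which are not independent), and the numbers were read as pairing the libraries. Over the 53 genes the same r was 0.099, 0.522 and -0.015, so that for them the pairing was visible between Rrp6exo- and WT and not in the other combinations.

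Together the mRNAs of these genes took a few percent of all reads, least in Rrp6exo-. They made up 3.40% and 3.11% of the reads in *rrp6Δ*, 2.96% and 2.81% in Rrp6exo-, and 3.61% and 3.19% in WT. The Rrp6exo- libraries were both below both WT libraries, and the *rrp6Δ* libraries overlapped with WT. A library gives RNA relative to the rest of that library, so that less mRNA per cell and more of other RNA cannot be told apart.

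The first comparison asks what losing the Rrp6 protein does to these mRNAs. In *rrp6Δ* against WT the 53 log2 fold changes had a median of -0.209, and 44 of 53 were below 0, whereas the median of all genes was 0.005. Within replicate 1 the median of the 53 was -0.195 and within replicate 2 it was -0.176. Both *rrp6Δ* libraries were below both WT libraries for 34 genes (64.2%, against 24.9% of all genes) and above both for 1, *RPL18B* (1.89%, against 25.1% of all genes). The main test, limma on log2(scaled count + 1) with adjustment over all 6277 genes, called none of the 53 at an adjusted p of 0.05 (lowest 0.100, *RPL7B*), beside 0.175% of all genes. At an unadjusted p below 0.05 there were 21 of the 53, and 16.6% of all genes. edgeR without the pairing also called none, beside 11 of all 6277 genes. DESeq2 called 10 lower (18.9%, against 4.92% of all genes) and 1 higher (1.89%, against 3.11%).

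With the replicate number as a block, limma called 8 of the 53 genes lower in *rrp6Δ* (15.1%, against 6.04% of all genes) and 1 higher (1.89%, against 5.43%), and edgeR with the block called the same 9 genes, where the shares of all genes called were 5.74% lower and 5.69% higher. Among the genes that fell were *RPL4A*, *RPL4B*, *RPL7B*, *RPL8A*, *RPL21B*, *RPL22B* and *RPL28*, and the gene that rose was *RPL18B*. With a library left out, 1 strain has 1 library and the calls over all genes moved together with those of the 53. Without *rrp6Δ* replicate 1 or replicate 2 the blocked fit called none of the 53, against 0.303% and 0.191% of all genes, and without WT replicate 1 or replicate 2 it called *RPL7B* alone, against 2.79% and 2.09%. Without Rrp6exo- replicate 1 or replicate 2 it called 31, against 34.8% and 34.7% of all genes. The log2 fold changes kept their sign in all 6 of these fits for all 9 genes. They ran from -0.84 to -0.66 for *RPL7B*, from -0.70 to -0.40 for *RPL4A* and from 0.30 to 0.42 for *RPL18B*. The 9 genes were picked from these same libraries, which did not overlap between *rrp6Δ* and WT, so a kept sign is no separate check. Leaving out an Rrp6exo- library cannot change these log2 fold changes. The sign of each of these 9 differences was also the same in both replicate pairs, which follows from the lack of overlap.

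**Figure D1:**
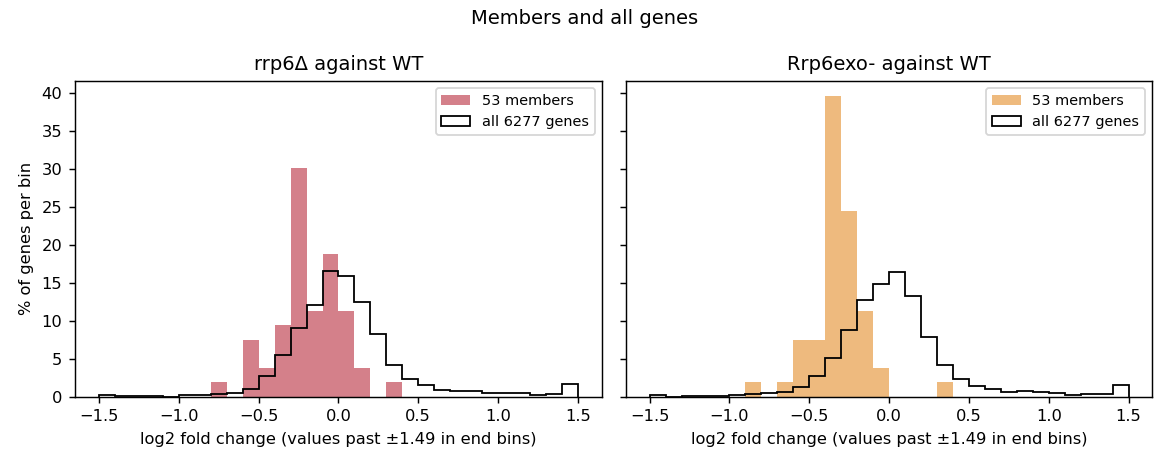
Percent of genes in equal bins of log2 fold change for the 53 large subunit genes (filled) and for all 6277 genes (line), in *rrp6Δ* against WT (left) and Rrp6exo- against WT (right). The 53 genes centre at -0.209 and -0.318 while all genes centre at 0.005 and 0.011, and 1 gene of the 53, *RPL18B*, lies apart to the right in both panels.

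The second comparison asks what losing the activity of Rrp6 does while the protein stays. In Rrp6exo- against WT the median of the 53 genes was -0.318, and 52 of 53 were below 0, against a median of 0.011 for all genes. The medians within replicates 1 and 2 were -0.390 and -0.220. Both Rrp6exo- libraries lay below both WT libraries for 48 genes (90.6%, against 23.5% of all genes), and *RPL18B* again was the 1 gene above (1.89%, against 21.7%). The limma test without the block called none of the 53 (lowest adjusted p 0.0604, *RPL7B*), beside 0.112% of all genes. At an unadjusted p below 0.05 there were 40 of the 53 and 17% of all genes. edgeR without the block also called none, beside 6 of all 6277 genes. DESeq2 called 25 lower (47.2%, against 5.19% of all genes) and 1 higher (1.89%, against 3.04%).

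With the block, limma called 22 of the 53 lower in Rrp6exo- (41.5%, against 7.04% of all genes) and 1 higher (1.89%, against 5.7%), and edgeR called 18 lower (34.0%, against 6.75%) and 1 higher (1.89%, against 5.94%). The 9 genes called in *rrp6Δ* were all among these 23, but both comparisons use the same WT libraries. The other 14 were *RPL3*, *RPL6A*, *RPL11A*, *RPL11B*, *RPL12B*, *RPL13A*, *RPL15A*, *RPL15B*, *RPL16A*, *RPL19A*, *RPL20A*, *RPL20B*, *RPL22A* and *RPL26A*, all of them lower. Here too the counts over the 53 and over all genes both moved with the library left out. The count of the 53 was 3 without WT replicate 1 and 2 without WT replicate 2, against 3.41% and 2.92% of all genes. It was 10 with either *rrp6Δ* library left out, against 6.21% without replicate 1 and 6.32% without replicate 2. It was 23 without Rrp6exo- replicate 1 and 43 without Rrp6exo- replicate 2, against 20.9% and 27.6% of all genes. The 23 genes kept their sign in all 6 of these fits. They were picked from these same libraries, which did not overlap between Rrp6exo- and WT, so a kept sign is no separate check. Leaving out an *rrp6Δ* library cannot change these log2 fold changes. *RPL4B* and *RPL7B* were called in all 6 of these fits.

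The size of these shifts depends on the scaling, which moves all genes of a library by 1 factor and so leaves their order as it is. With every library set to 1 common total, the median of all genes moved to 0.160 in *rrp6Δ* and 0.120 in Rrp6exo-, the medians of the 53 genes became -0.054 and -0.208, and 29 and 50 of them were below 0. Relative to the median of all genes the 53 stood at -0.214 in *rrp6Δ* and -0.328 in Rrp6exo-, with 44 and 52 of them below it. Within a strain the clones also differed. The median difference of the 53 genes between replicate 2 and replicate 1 was -0.119 in *rrp6Δ*, 0.056 in Rrp6exo- and -0.113 in WT, and the largest for a single gene was 0.616 in size, in Rrp6exo-.

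**Figure D2:**
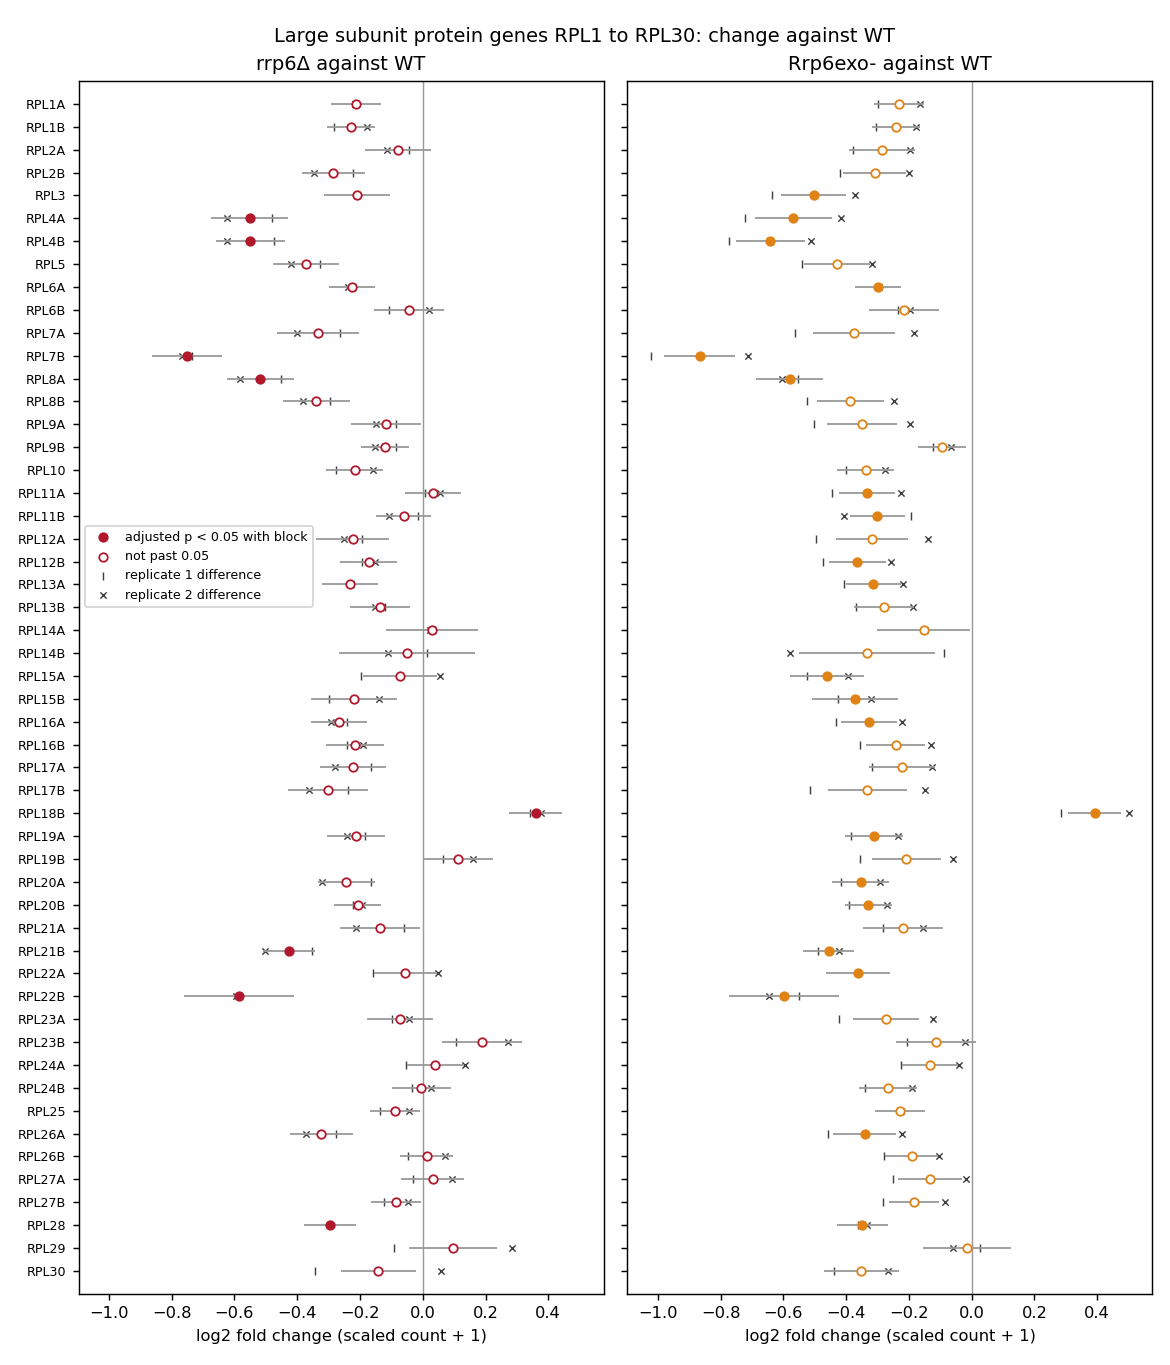
Log2 fold change of 52 of the 53 genes with its standard error (horizontal line) in *rrp6Δ* against WT (left) and Rrp6exo- against WT (right), with the difference within replicate 1 (bar) and within replicate 2 (cross). Filled points passed an adjusted p of 0.05 in limma with the replicate block, 8 of the genes drawn in *rrp6Δ* and 22 in Rrp6exo-, and *RPL18B* is the 1 filled point to the right of 0 in each panel.

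*RPL18B* (YNL301C) was the 1 gene of the 53 that was higher in both mutants without overlap. It had scaled counts of 9845 and 9719 in *rrp6Δ*, 9459 and 10579.9 in Rrp6exo-, and 7759.9 and 7480.0 in WT, and all 4 mutant libraries were above those of WT. The log2 fold change was 0.36 in *rrp6Δ* and 0.39 in Rrp6exo- (SE 0.085 for both), with adjusted p of 0.158 and 0.130 in limma, and 0.0297 and 0.0208 with the block. Between *rrp6Δ* and Rrp6exo- the libraries overlapped and the difference was -0.03 (95% interval -0.241 to 0.176).

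*RPL7A* (YGL076C) and *RPL7B* (YPL198W) encode a protein that is 98.0% identical between the copies. *RPL7B* had the lowest fold change of the 53 genes in both mutants, with scaled counts of 2103 and 1918 in *rrp6Δ*, 1725 and 1992 in Rrp6exo-, and 3501 and 3265 in WT. All 4 mutant libraries were well below both WT libraries, with a log2 fold change of -0.75 in *rrp6Δ* (SE 0.113, adjusted p = 0.100 in limma, 0.00821 with the block) and -0.87 in Rrp6exo- (SE 0.113, adjusted p = 0.0604, 0.00361 with the block). *RPL7A*, the major copy, had 20449 and 17844.5 in *rrp6Δ*, 16624 and 20743 in Rrp6exo-, and 24559.6 and 23583 in WT. It was also below WT without overlap, by -0.33 in *rrp6Δ* and -0.37 in Rrp6exo-, and passed neither limma fit with all 6 libraries. The A share was 90.7% and 90.3% in *rrp6Δ* and 90.6% and 91.2% in Rrp6exo-, against 87.5% and 87.8% in WT, a description with no test. Of 50-base windows in the *RPL7A* coding sequence 43.1% were unique in the coding sequences, so part of the reads of this pair could have been left uncounted or split. The snoRNA snR39 of the *RPL7A* intron was close to 0, with scaled counts of 4.17 and 35.2 in *rrp6Δ*, 0 and 0 in Rrp6exo-, and 2.95 and 0 in WT, and snR59 was not analysed here.

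*RPL22A* (YLR061W) and *RPL22B* (YFL034C-A) encode the least alike of the paralogous proteins, with 84.4% identity. *RPL22B*, the gene with the lowest level per kilobase of the 53, had scaled counts of 678 and 572 in *rrp6Δ*, 692 and 552 in Rrp6exo-, and 1014 and 864 in WT. Mutants and WT did not overlap. The log2 fold change was -0.59 in *rrp6Δ* and -0.60 in Rrp6exo- (SE 0.175 for both, adjusted p of 0.204 and 0.194 in limma, and 0.0167 and 0.0134 with the block). *RPL22A* had 16018 and 16315 in *rrp6Δ*, 13909.8 and 12281 in Rrp6exo-, and 17884 and 15788 in WT. The *rrp6Δ* libraries fell inside the WT range, and the Rrp6exo- libraries were below all others. The log2 fold change was -0.06 in *rrp6Δ* (adjusted p = 0.842 in limma) and -0.36 in Rrp6exo- (SE 0.101, adjusted p = 0.181 in limma, 0.0295 with the block). *RPL22B* made a small part of the pair in every strain, since the A copy held 96.0% and 96.6% in *rrp6Δ*, 95.3% and 95.7% in Rrp6exo-, and 94.7% and 94.9% in WT.

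*RPL30* (YGL030W), whose protein represses the splicing of its own transcript, had scaled counts of 4756 and 5869 in *rrp6Δ*, 4456 and 4685 in Rrp6exo-, and 6034 and 5632 in WT. The *rrp6Δ* libraries spread over more than the distance to WT, and the Rrp6exo- libraries were below both of WT. The difference on the log2 scale was -0.14 in *rrp6Δ* (SE 0.120, adjusted p = 0.615 in limma) and -0.35 in Rrp6exo- (SE 0.120, adjusted p = 0.236 in limma, 0.0533 with the block), so it passed in neither. That holds for the fits with all 6 libraries. With a library left out and without the block, its difference in Rrp6exo- against WT ran from -0.40 to -0.30. The counts give reads per gene and do not separate spliced from unspliced RNA of any of these genes.

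**Figure D3:**
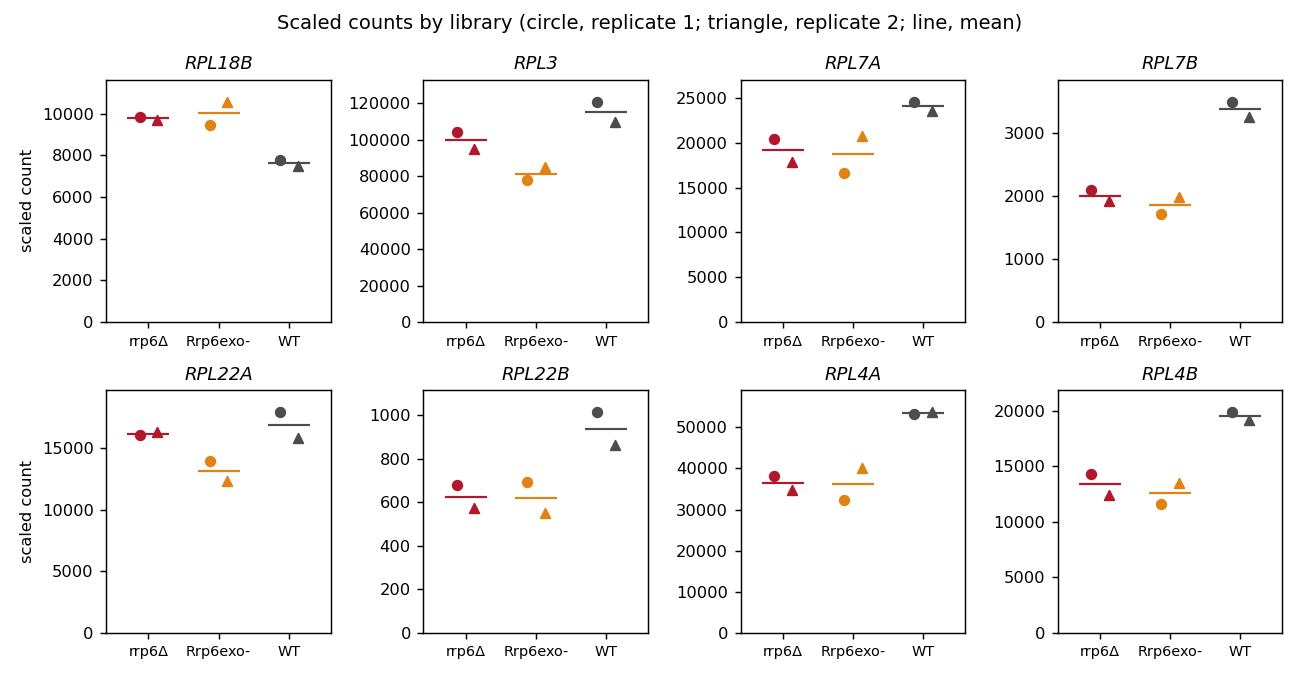
Scaled counts of *RPL18B*, *RPL3* and both copies of *RPL7*, *RPL22* and *RPL4* in each library of *rrp6Δ*, Rrp6exo- and WT (circle, replicate 1; triangle, replicate 2; line, mean of the 2). *RPL18B* is the 1 gene of the 8 whose mutant libraries lie above WT, and the *rrp6Δ* libraries of *RPL22A* lie within the WT range.

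*RPL4A* (YBR031W) and *RPL4B* (YDR012W) encode a core protein whose long loop reaches into the exit tunnel, and both copies were lower in both mutants. *RPL4A* had scaled counts of 38197 and 34833 in *rrp6Δ*, 32337 and 40169 in Rrp6exo-, and 53288 and 53637 in WT. *RPL4B* had 14296 and 12458 in *rrp6Δ*, 11622 and 13490.5 in Rrp6exo-, and 19854 and 19214 in WT. For both genes every mutant library was below both WT libraries by more than the spread between clones. In *rrp6Δ* the log2 fold change was -0.55 for both copies (adjusted p of 0.147 and 0.138 in limma, 0.0298 and 0.0209 with the block). In Rrp6exo- it was -0.57 for *RPL4A* and -0.64 for *RPL4B* (adjusted p of 0.130 and 0.0931 in limma, 0.0240 and 0.0123 with the block). The copies are 98.9% identical in coding sequence and 27.3% of the 50-base windows of *RPL4A* were unique, so their separate values are uncertain, while their sum was 49892 ± 3678 in *rrp6Δ*, 48809 ± 6860 in Rrp6exo- and 72996 ± 206 in WT (SD, n = 2 each).

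Rpl5 and Rpl11 bind the 5S rRNA and enter the subunit with it as one particle. *RPL5* (YPL131W), which had the highest level per kilobase of the 53 genes, had scaled counts of 104795 and 95626 in *rrp6Δ*, 90335 and 102514 in Rrp6exo-, and 131355 and 127817 in WT. It lay below WT without overlap, by -0.37 in *rrp6Δ* and -0.43 in Rrp6exo- (SE 0.105 for both), and DESeq2 called it (adjusted p of 0.0140 and 0.00285), while limma with the block did not (0.0933 and 0.0623). Limma with the block did call it in Rrp6exo- once the libraries were set to the same total or the same upper quartile. Those fits called 13.2% and 14.5% of all genes. With a library left out and without the block, its difference from WT ran from -0.44 to -0.31 in *rrp6Δ*. In Rrp6exo- it ran from -0.52 to -0.34. *RPL11A* (YPR102C) had 13334 and 12397 in *rrp6Δ*, 9758 and 10208 in Rrp6exo-, and 13278 and 11922 in WT. The *rrp6Δ* and WT libraries overlapped and the Rrp6exo- libraries lay below all of them, with log2 fold changes of 0.03 in *rrp6Δ* (adjusted p = 0.913 in limma) and -0.33 in Rrp6exo- (adjusted p = 0.170 in limma, 0.0338 with the block). *RPL11B* was -0.06 in *rrp6Δ* and -0.30 in Rrp6exo-. The *RPL11* copies share most of their coding sequence, with 39.1% of windows unique.

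Of the other genes named by the fixed rule, *RPL15A* (YLR029C), which encodes an essential protein of the subunit, had 36815.5 and 36007.5 in *rrp6Δ*, 29354.5 and 26392 in Rrp6exo-, and 42240.4 and 34679 in WT. The WT clones lay on both sides of the *rrp6Δ* libraries, and the Rrp6exo- libraries were lowest (log2 fold change -0.46, SE 0.118, adjusted p = 0.163 in limma, 0.0219 with the block). *RPL19B* (YBL027W), for a protein that forms a bridge between the subunits, had 33195 and 29923 in *rrp6Δ*, 24756 and 25727 in Rrp6exo-, and 31708 and 26798 in WT. *RPL23B* (YER117W) had 14706 and 13296 in *rrp6Δ*, 11846.5 and 10848 in Rrp6exo-, and 13668 and 11016 in WT. For both of these the *rrp6Δ* and WT ranges overlapped. With all 6 libraries neither mutant passed against WT in limma, with or without the block. With the block and the same total both were called higher in *rrp6Δ*, beside 16.3% of all genes. With a library left out and without the block, *RPL23B* ran from 0.03 to 0.34 in *rrp6Δ* against WT. *RPL19B* ran from -0.33 to -0.09 in Rrp6exo- against WT in the same fits. *RPL17A* (YKL180W), for a protein at the exit of the tunnel, was -0.22 in both mutants. It passed in neither in limma with all 6 libraries, with or without the block. *RPL9B* was -0.12 in *rrp6Δ* and -0.09 in Rrp6exo-, and *RPL29*, the shortest gene of the 53, with 180 coding bases, was 0.10 in *rrp6Δ* and -0.01 in Rrp6exo-. In Rrp6exo- *RPL29*, *RPL9B* and *RPL23B* (-0.11) lay nearest to 0.

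The remaining genes that passed with the block in both mutants are named after their values were seen. *RPL8A* had a log2 fold change of -0.52 in *rrp6Δ* and -0.58 in Rrp6exo-, *RPL21B* -0.43 and -0.46, and *RPL28*, the gene in which cycloheximide resistance arises, -0.30 and -0.35. *RPL3*, which encodes a protein next to the peptidyl transferase centre, had 104476 and 95062 in *rrp6Δ*, 77698 and 84934 in Rrp6exo-, and 120787 and 109825 in WT. It differed without overlap in both mutants, by -0.21 in *rrp6Δ* (adjusted p = 0.278 with the block) and -0.50 in Rrp6exo- (0.0374 with the block). The 9 genes above 0 in *rrp6Δ* were *RPL18B* and, with libraries that overlapped with WT, *RPL11A*, *RPL14A*, *RPL19B*, *RPL23B*, *RPL24A*, *RPL26B*, *RPL27A* and *RPL29*. In Rrp6exo- 4 genes overlapped with WT (*RPL14A*, *RPL14B*, *RPL23B* and *RPL29*). Over all 53 genes the fold changes ran from -0.75 to 0.36 in *rrp6Δ*, with quartiles of -0.29 and -0.06, and from -0.87 to 0.39 in Rrp6exo-, with quartiles of -0.37 and -0.23.

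The third comparison, *rrp6Δ* against Rrp6exo-, asks what the inactive protein does that its absence does not. The median of the 53 genes was 0.111, 3 of 53 were below 0, and the median of all genes was 0.003. The medians within replicates 1 and 2 were 0.195 and 0.038. Both *rrp6Δ* libraries were above both Rrp6exo- libraries for 24 genes (45.3%, against 17.3% of all genes) and below both for 0 (against 15.9%). limma called none of the 53 without the block (lowest adjusted p 0.876, beside 0.0159% of all genes, with 7 of the 53 and 5.46% of all genes at an unadjusted p below 0.05) and none with it (0.137, beside 0.0319% of all genes, with 13 of the 53 and 15.5% of all genes at an unadjusted p below 0.05). edgeR called none with the block (beside 0.0319% of all genes) or without it (beside 1 of all 6277 genes). DESeq2 called *RPL11A* (adjusted p = 0.0489, beside 0.781% of all genes). The highest log2 fold changes were 0.39 for *RPL15A* (95% interval 0.096 to 0.679) and 0.37 for *RPL11A* (0.145 to 0.585). The third was *RPL19B* at 0.32. *RPL22A* stood at 0.31 and *RPL23B* at 0.30. For the genes that moved most against WT the mutants lay close to each other, with 0.12 for *RPL7B* (-0.163 to 0.393), 0.02 for *RPL4A* (-0.285 to 0.320) and 0.01 for *RPL22B* (-0.419 to 0.444), intervals too wide to say that they did not differ.

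Among the 23 pairs the A copy held more than the B copy per coding base in all 6 libraries for 14 pairs and less in all 6 for 7. The copies had the same sign in 15 pairs in *rrp6Δ* and in 22 pairs in Rrp6exo-. The median distance between the fold changes of A and B was 0.116 in *rrp6Δ* and 0.102 in Rrp6exo-. The A minus B difference of *RPL7* was 0.42 in *rrp6Δ* and 0.49 in Rrp6exo-, and that of *RPL22* was 0.53 and 0.24. The A share in *rrp6Δ* was above both WT libraries in 7 pairs and below both in 8, and in Rrp6exo- above in 5 and below in 6. Among all genes taken singly, the *rrp6Δ* libraries were above both WT libraries for 25.1% and below both for 24.9%. For Rrp6exo- these were 21.7% and 23.5%. No such share was taken for other gene pairs, and the pair counts were not tested. Added together, the copies were below WT in 19 of 23 pairs in *rrp6Δ* and in 23 of 23 in Rrp6exo-, with median log2 differences of the sum of -0.186 and -0.288.

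**Figure D4:**
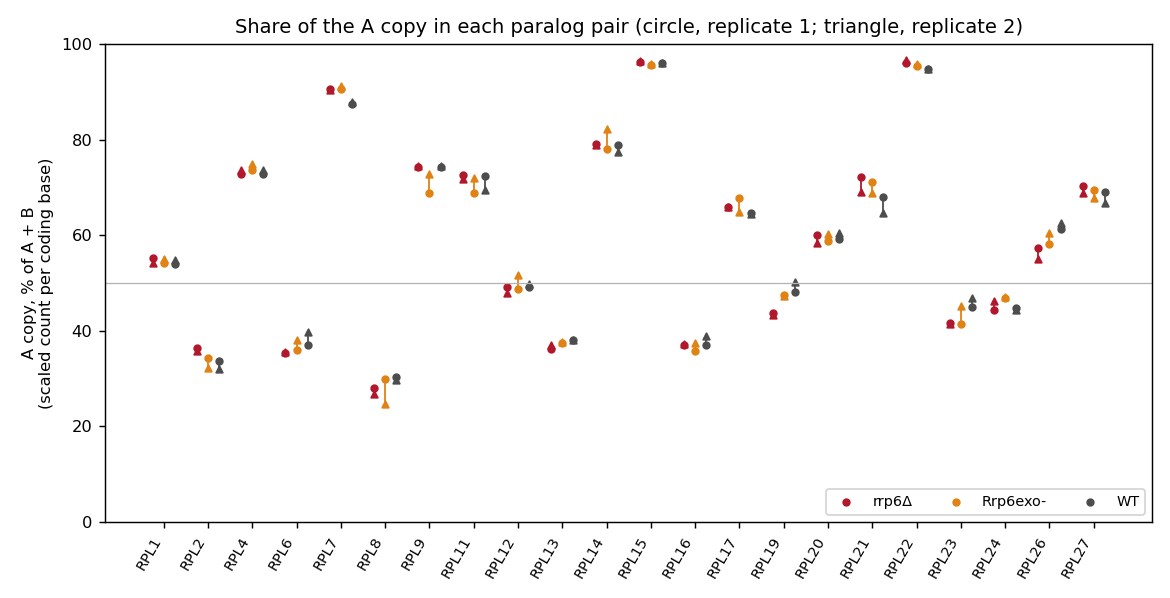
Share of the A copy in the scaled counts per coding base of 22 of the 23 pairs, by library, in *rrp6Δ*, Rrp6exo- and WT (circle, replicate 1; triangle, replicate 2). *RPL7* lies between 90.3% and 91.2% in the mutants, against 87.5% and 87.8% in WT, while *RPL1* lies at 54.1% to 55.3% in the 6 libraries.

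Genes with and without an intron had similar medians. The 33 genes with an intron had a median of -0.208 in *rrp6Δ* and -0.309 in Rrp6exo-, and the 20 without had -0.210 and -0.343. With the block, 5 of the 33 fell and 1 rose in *rrp6Δ*, and 3 of the 20 fell, against 6.04% of all genes lower and 5.43% higher. In Rrp6exo- 13 of the 33 fell and 1 rose, and 9 of the 20 fell, against 7.04% of all genes lower and 5.7% higher. The 25 intron genes with GTATGT alone had medians of -0.208 and -0.297, and the 8 with another 5′ splice site -0.179 and -0.339. The 46 duplicated genes were at -0.210 and -0.312 and the 7 single genes at -0.209 and -0.348. The 12 genes of which under 80% of 50-base windows were unique were at -0.220 in *rrp6Δ* and -0.322 in Rrp6exo-, against -0.208 and -0.318 for the other 41.

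Other ribosomal protein genes were read as background, by counts and medians. Over all genes, limma with the block called 6.04% lower and 5.43% higher in *rrp6Δ*, and 7.04% and 5.7% in Rrp6exo-. Without the block it called no gene of the lists in this paragraph against WT. The 28 other large subunit genes (*RPL31A* onwards and the stalk genes) had medians of -0.072 in *rrp6Δ* and -0.213 in Rrp6exo-, with 3 and 4 lower calls with the block and none higher. The 56 small subunit genes had medians of -0.180 and -0.288, with 2 and 22 lower calls and none higher. The 18 regulators of ribosomal protein genes stood at -0.012 and 0.124. With the block *IFH1*, which encodes the coactivator bound by Fhl1, was called higher by 0.35 in *rrp6Δ* and by 0.48 in Rrp6exo-. Also with the block, *SFP1* and the repressor gene *TOD6* were called higher by 0.29 and 0.39 in Rrp6exo-. Without the block limma gave adjusted p of 0.497 and 0.351 for *IFH1*. In Rrp6exo- it gave 0.198 for *SFP1* and 0.177 for *TOD6*. The 16 chaperones and assembly factors had medians of 0.015 and 0.060, with 1 higher call in *rrp6Δ* with the block (*RLP24*). The 9 factors of pre-mRNA decay had medians of 0.167 and 0.088, with *RNT1* (0.38) and *NMD2* (0.25) called higher in *rrp6Δ* with the block. The 18 stress genes, which in yeast move opposite to ribosomal protein genes, had medians of -0.130 in *rrp6Δ* and 0.007 in Rrp6exo-. With the block, 2 of them were called higher and 3 lower in Rrp6exo-, and none in *rrp6Δ*. In Rrp6exo- against WT their median was 0.366 within replicate 1 but -0.444 within replicate 2, where the 53 genes were at -0.390 and -0.220. The part of growth state in these differences was not tested.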

How the data were processed

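Total RNA was depleted of ribosomal RNA and sequenced as stranded paired reads of 50 bases. The authors used STAR (sacCer3) for alignment, Picard 1.124, HTSeq 0.5.3 with the R64 annotation for gene counts, and DESeq for normalisation. The strand setting, the feature counted and the treatment of reads matching several genes are not given in the sources used here. The deposited values are a signal, read counts divided by 1 size factor per library. Reads recovered from the step between values were whole for 100.0% of them (within 0.01 read) and came to 34188755 to 39501874 per library, whose counting error excludes PCR duplication.

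Members were matched by systematic name, and coordinates, introns and sequences were read from the RefSeq R64 genome. The main test, run in R 4.3.3, was limma 3.58.1 on log2(scaled count + 1), modelling strain, all 6 libraries, a variance trend and Benjamini-Hochberg adjustment over 6277 genes at 0.05. Fold changes are on that scale. Because the deposited table holds no raw counts, edgeR (4.0.16, quasi-likelihood) and DESeq2 (1.42.0) on the recovered reads were alternatives. The other alternatives were pseudocounts of 0.5 and 10, a minimum mean of 10, the same total or upper quartile, no trend, only the 4 libraries compared, the replicate number as a block, an adjusted p of 0.01, and each library left out. The block combined with rescaling or with a left-out library was added after the data were seen. Replicate numbers were read as pairing the libraries because their differences correlated between strains for each pair of strains. The fits were also run on simulated data, and the outcome is not given here. No power or error rate for changes of the size seen in these genes, or for the replicate block, is drawn from that run.

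The members and lists were chosen with earlier results of these data known. Genes named were 6 with regulated or host introns, members past the threshold, the 3 highest and 3 lowest per comparison, the 3 pairs whose copies differed most, and the highest and lowest per kilobase. Other genes are named after their values were seen. One gene that the rule names is not reported here.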

Additional observations from a re-analysis of the deposited data

How the results depend on the processing

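With 2 libraries a strain, calls depended on the model. The count of the 53 genes called was 0 in all 3 comparisons under the pseudocounts, the minimum, the rescalings, no trend, the 4 libraries alone and edgeR without the block. In *rrp6Δ* against WT it became 9 with the replicate block in limma or edgeR and 11 in DESeq2. In Rrp6exo- against WT it became 23, 19 and 26, and DESeq2 called 1 gene in *rrp6Δ* against Rrp6exo-. The block changed no other call of the 53 genes. With the block and the same total it was 10 in *rrp6Δ*, 3 of them higher (*RPL18B*, *RPL19B* and *RPL23B*), and 15 in Rrp6exo- against WT (16.3% and 13.2% of all genes). Leaving out single libraries moved the blocked count between 0 and 31 in *rrp6Δ* and between 2 and 43 in Rrp6exo- against WT, with 1 residual degree of freedom fewer, while 12 to 2183 and 183 to 1730 of all genes were called. The median of the 53 genes in *rrp6Δ* against WT was -0.054 with the same total and -0.163 with the same upper quartile, and between -0.246 and -0.133 with a library left out. Without the 10 most abundant genes the share of reads on the 53 genes was 3.892% in *rrp6Δ*, 3.502% in Rrp6exo- and 4.133% in WT.

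No call of a named gene turned round, but some differences near 0 did. With the same total *RPL9B* became 0.0349 in *rrp6Δ* and 0.0166 in Rrp6exo- against WT and 0.0183 in *rrp6Δ* against Rrp6exo-, and in *rrp6Δ* against WT *RPL15A* became 0.0829, *RPL22A* 0.0991 and *RPL30* 0.0129. *RPL29* in Rrp6exo- against WT became 0.0949 with the same total and 0.0088 with the same upper quartile. In *rrp6Δ* against Rrp6exo-, *RPL18B* became 0.0127 with the same total, and *RPL17A* became 0.0445 with the same total, 0.0221 with the same upper quartile, 0.0034 in edgeR and 0.0037 in DESeq2. With a library left out, *rrp6Δ* against Rrp6exo- ran from -0.1391 to 0.1738 for *RPL4A*, -0.0156 to 0.1994 for *RPL4B*, -0.0343 to 0.1482 for *RPL5*, -0.1189 to 0.2005 for *RPL7A*, -0.0764 to 0.0229 for *RPL9B*, -0.1169 to 0.1159 for *RPL17A*, -0.1132 to 0.0484 for *RPL18B*, -0.1504 to 0.1756 for *RPL22B* and -0.0433 to 0.2661 for *RPL29*. In *rrp6Δ* against WT it ran from -0.0465 to 0.1089 for *RPL11A*, -0.2143 to 0.0702 for *RPL15A*, -0.0087 to 0.2340 for *RPL19B*, -0.1457 to 0.0341 for *RPL22A*, -0.0150 to 0.2080 for *RPL29* and -0.2936 to 0.0097 for *RPL30*. In Rrp6exo- against WT it ran from -0.2699 to 0.0413 for *RPL23B* and -0.1696 to 0.1398 for *RPL29*. The cause was not tested.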
